A study of Homo sapiens with 4 samples.

Results

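HLA class I antigen presentation was described here through 9 genes: the heavy chains HLA-B, HLA-C, HLA-E and HLA-F, the light chain B2M, the peptide transporter subunits TAP1 and TAP2, and the immunoproteasome subunits PSMB8 and PSMB9. They were taken by name, as every probe of the array whose gene name is one of the 9, which gave 15 probes on 24 spots, out of 43305 genes, 58201 probes and 60901 spots. All 15 probes were well above background on all 4 arrays, so no member was lost to a filter on dim signals.

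HN4 and HN30 are established cell lines from human squamous carcinoma of the head and neck (HNSCC), grown in DMEM with fetal bovine serum. Their resistant derivatives HN4/DDP and HN30/DDP were selected in rising doses of cisplatin, which crosslinks DNA, and by the sample labels were kept in medium with 20 μM of the drug for 48 h. Total RNA of each of the 4 cultures was labelled with Cy3 and hybridised to 1 one-colour Agilent expression array, so that each condition has 1 array, and the effect of long selection, of the drug in the medium and of the culture itself cannot be told apart. The sources used here do not say whether a resistant line is a pool or a clone.

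Class I molecules show the cell's own peptides to CD8 T cells. The proteasome cuts proteins into peptides, and its interferon-inducible catalytic subunits, among them PSMB8 and PSMB9, change the cutting preference. TAP1 and TAP2 form 1 transporter that carries peptides into the endoplasmic reticulum, where a heavy chain pairs with B2M and takes up a peptide before it travels to the cell surface. HLA-B and HLA-C are classical, highly polymorphic heavy chains, and HLA-E and HLA-F are less variable relatives that are also read by receptors of natural killer cells. Many tumours lower parts of this route.

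HLA genes differ between alleles and resemble each other, so what a probe can bind matters for its value. The 30-base stretches of the file's own probe sequences printed next run 5′ to 3′, with the base that differs between the probes in capitals, and are shown because 2 HLA-B probes and 1 HLA-C probe lie on each other.

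HLA-B probe A_33_P3379947, bases 12 to 41: agtcaattcctggaaTttgagagagcaaat
HLA-B probe A_33_P3424800, bases 22 to 51: agtcaattcctggaaGttgagagagcaaat
HLA-C probe A_33_P3424803, bases 3 to 32: agtcaattcctggaaGttgagagagcaaat

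Counted from 1 at the 5′ end of the HLA-B probe A_33_P3379947, the difference is T27G, and it was the only one over the 50 bases that this probe shares with the other HLA-B probe and over the 51 bases that it shares with the HLA-C probe. The other HLA-B probe and the HLA-C probe were identical over the 41 bases that they share. All 3 are placed by the file at the HLA-B locus on the minus strand (hg19), A_33_P3379947 at chr6:31321653-31321712, A_33_P3424800 at chr6:31321663-31321722 and the probe named for HLA-C at chr6:31321644-31321703. Their values are therefore not independent of each other, and how much HLA-B and how much HLA-C transcript each of them reads was not tested. The other HLA-C probe, A_33_P3330109 (chr6:31236617-31236676, minus strand), shared no stretch of 20 bases with a probe of another gene name among the 58201 probes, and neither did the third HLA-B probe, A_33_P3399208, for which the file gives no position.

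HLA-E was measured by A_33_P7431456 (chr6:30460882-30460941, plus strand) and A_32_P460973 (chr6:30460729-30460788, plus strand). The 5′ bases of the latter are shown because it shares no stretch of 20 bases with a probe of another gene name.

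HLA-E probe A_32_P460973, bases 1 to 30: cttcctcacactgacctgtgttccttccct

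The other HLA-E probe, A_33_P7431456, shared at least 20 bases with probes of 6 other gene names, at most 48 bases in a row. Each gene was represented by whichever of its probes had the highest mean signal, which for HLA-E is A_33_P7431456, so both HLA-E probes are given.

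Values are log2 of the processed signal relative to the 75th percentile of the same array, called the log2 signal here, and differences are the log2 signal of the resistant array minus that of its parental array. The scanner software's own error was 0.20 (SD of the difference, log2) for most member probes. It covers reading the spot, not the growth of the cells, and a resistant line cannot be tested against its parental line on a single pair of arrays. Beyond the choice of the probe that represents a gene, log2 signals of different probes were not set against each other, since probes differ in how strongly they bind.

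Heavy chain signals were higher on the HN30/DDP array than on that of HN30, while in HN4/DDP most heavy chain probes lay within the scanner error of HN4. HLA-F was higher in both lines. HLA-F probe A_33_P3379939 (chr6:29693280-29693338, plus strand) had a log2 signal of 6.46 in HN4 and 6.87 in HN4/DDP, against 6.01 in HN30 and 7.17 in HN30/DDP. That is a difference of 0.42 in HN4 and 1.16 in HN30, or 1.33-fold and 2.24-fold. The other HLA-F probe, A_33_P3379967 (chr6:29692114-29692173, plus strand), read 1.10, 1.68, 0.56 and 1.85 in the same order and differed by 0.59 and 1.29. Both HLA-F probes were thus lowest in HN30 and highest in HN30/DDP, and both differences exceeded the scanner error in each line. The HLA-F probe that stands for the gene is shown here in full because HLA-F had the largest difference above 0 among the 9 representative probes.

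HLA-F probe A_33_P3379939, bases 1 to 60: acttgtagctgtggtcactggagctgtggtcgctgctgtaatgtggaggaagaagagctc

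HLA-B probe A_33_P3379947 had a log2 signal of 7.44 in HN4 and 7.49 in HN4/DDP, against 6.98 in HN30 and 7.79 in HN30/DDP. Its difference was 0.05 in HN4, within the scanner error, and 0.81 in HN30. A_33_P3424800 read 7.09, 7.11, 6.70 and 7.27, with differences of 0.02 and 0.57. The third HLA-B probe, A_33_P3399208, read 1.42, 2.05, 1.15 and 2.51, and its differences of 0.63 and 1.36 were the largest of the 3 in either line. The HLA-B probes thus agreed on the direction but spanned 0.61 in HN4 and 0.79 in HN30, several times the scanner error. A_33_P3399208 is printed because it shares no long stretch with the other 2.

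HLA-B probe A_33_P3399208, bases 1 to 60: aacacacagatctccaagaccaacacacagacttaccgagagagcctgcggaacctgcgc

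HLA-C probe A_33_P3424803 read 8.10 in HN4 and 8.19 in HN4/DDP, against 7.82 in HN30 and 8.30 in HN30/DDP. Its difference was 0.09 in HN4 and 0.48 in HN30. The probe at the HLA-C locus, A_33_P3330109, read 8.14, 8.14, 7.67 and 8.12, a difference of 0.44 in HN30 and of less than 0.01 in HN4. Both HLA-C probes were lowest in HN30 and gave like differences, although only A_33_P3330109 is placed at HLA-C.

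HLA-E probe A_33_P7431456 read 8.97 in HN4 and 8.80 in HN4/DDP, against 8.77 in HN30 and 8.89 in HN30/DDP. Its differences of -0.17 and 0.11 lay within the scanner error in both lines. The probe without shared stretches, A_32_P460973, read 5.96, 6.03, 5.59 and 6.09, with differences of 0.07 and 0.49. In HN30 the 2 HLA-E probes therefore disagreed by 0.38. The 5 other gene probes that hold the most shared 20 bases of A_33_P7431456 had differences from -0.36 to -0.09 in HN4 and from 0.04 to 0.68 in HN30. The values of A_33_P7431456 lay inside their range in both lines. In HN30 so did the 0.49 of A_32_P460973, so these ranges cannot show what A_33_P7431456 binds.

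The 9 HLA member probes were alike in how the 2 lines compared. All 9 were lower in HN30 than in HN4, by 0.20 to 0.54, while 8 of 9 were higher in HN30/DDP than in HN4/DDP. The exception was A_33_P3330109, at -0.02. A level set between HN4 and HN30 carries the lines' own HLA alleles, and the alleles were not analysed here. Within a line, the difference was above 0 for 9 of 9 HLA probes in HN30, with a median of 0.57, and for 8 of 9 in HN4, with a median of 0.07. Under scaling to the array median, which moved all HN30 differences down, 8 of 9 stayed above 0 in HN30, but their median was 0.15, within the scanner error of a single probe, and HLA-C was at 0.06. Since overlapping probes share sequence, these are counts of probes and not of separate transcripts.

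HLA-G, a class I heavy chain gene outside the 9 that is known from the placenta, had a difference of 0.12 in HN4 and 0.63 in HN30.

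**Figure D1:**
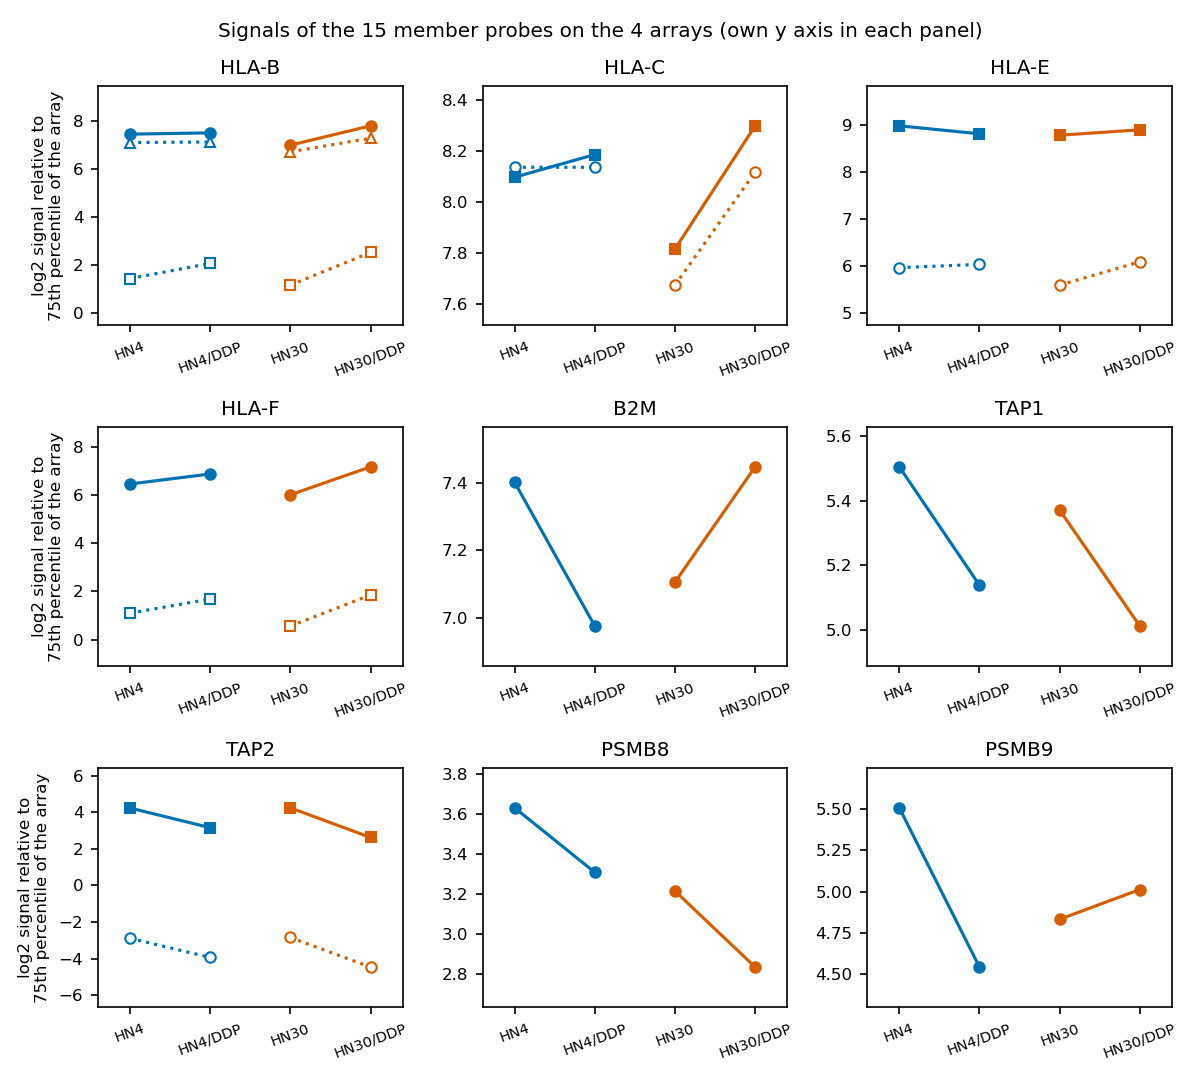
Log2 signal (relative to the array's 75th percentile) of each of the 15 member probes on the 4 arrays, with HN4 and HN4/DDP in blue, HN30 and HN30/DDP in orange, and a line joining each parental array to its resistant array. Filled symbols and solid lines mark the probe that represents the gene, open symbols and dotted lines the other probes, and each panel has its own y axis; TAP2 slopes down in both lines, and B2M and PSMB9 slope in opposite directions.

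B2M, the invariant light chain of class I molecules, was the best measured member, with 10 spots of A_23_P37441 (chr15:45007773-45007832, plus strand) on each array. Its log2 signal was 7.40 in HN4 and 6.98 in HN4/DDP, against 7.11 in HN30 and 7.45 in HN30/DDP. The SD between the spots of 1 array was 0.013 to 0.019. The difference was -0.43 in HN4, where the resistant array had 74.4% of the parental signal, and 0.34 in HN30, where it had 127%. The scanner error was 0.07 and 0.06 with the 10 spots taken as independent, and an error shared by the spots would not shrink so. The 2 lines pointed in opposite directions by more than this error, and by more than the 0.20 of most member probes. The array medians as reference left B2M at -0.08 in HN30, so its direction there depended on the scaling. The sequence of this probe is printed because it is the one member probe with repeat spots.

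B2M probe A_23_P37441, bases 1 to 60: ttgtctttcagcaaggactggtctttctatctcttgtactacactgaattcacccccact

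TAP2 was the member with the largest difference and the only one below -1 in both lines, although in HN4 it lay from -1.08 to -0.96 over 10 ways of processing. TAP2 encodes the second chain of the peptide transporter. Probe A_33_P3214650 (chr6:32793222-32793281, minus strand) had a log2 signal of 4.24 in HN4 and 3.16 in HN4/DDP, against 4.25 in HN30 and 2.63 in HN30/DDP. The resistant arrays thus held 47.4% and 32.5% of the parental signal, differences of -1.08 and -1.62. The parental lines had nearly the same signal, and HN30/DDP was the lowest of the 4. Probe A_23_P368067 (chr6:32789804-32789863, minus strand) read -2.89, -3.94, -2.84 and -4.47, with differences of -1.05 and -1.62 and a scanner error of 0.26 and 0.31. The TAP2 probes, which lie at different places, thus gave differences that lay apart by 0.03 in HN4 and by less than 0.01 in HN30. Their 5′ bases are printed to show that they read different sequence.

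TAP2 probe A_33_P3214650, bases 1 to 30: gctcagtattttcgcaaacagcagctgtct
TAP2 probe A_23_P368067, bases 1 to 30: cccaaagcctttggttcctcagtttccaaa

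TAP1, the partner chain, had 1 probe, A_23_P59005 (chr6:32813210-32813269, minus strand), with a log2 signal of 5.51 in HN4 and 5.14 in HN4/DDP, against 5.37 in HN30 and 5.01 in HN30/DDP. Its differences of -0.37 and -0.36 were nearly equal, at 77.5% and 77.9% of the parental signal. The TAP1 difference stood above that of TAP2 by 0.71 in HN4 and 1.26 in HN30, so the transcripts of the 2 chains of 1 transporter differed unequally. In HN30 the TAP1 difference ranged from -0.78 to 0.19 over 10 ways of processing. It was -0.78 with scaling to the array median. Quantile normalization and the deposited log2 table each gave 0.19, and taking off the trend with brightness gave 0.14. The remaining ways left it near the main value, so its sign depended on the scaling.

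PSMB9, the inducible subunit that replaces PSMB6 in the immunoproteasome, was read by A_23_P111000 (chr6:32823918-32823977, plus strand). Its log2 signal was 5.51 in HN4 and 4.54 in HN4/DDP, against 4.83 in HN30 and 5.01 in HN30/DDP. HN4 was the highest and HN4/DDP the lowest array, so that the difference was -0.96 in HN4 (51.3% of the parental signal) and 0.18 in HN30 (113%), the latter within the scanner error. PSMB8, which replaces PSMB5, was read by A_23_P250629, whose 60 bases span 468 bases of the genome (chr6:32810023-32810490, minus strand). It had a log2 signal of 3.63, 3.31, 3.22 and 2.84 in the same order of arrays and differences of -0.32 and -0.38. PSMB8 and PSMB9 thus shared the direction in HN4 only. In HN30 PSMB8 was below 0 in 7 of 10 ways of processing and PSMB9 above 0 in 9 of 10.

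PSMB9 probe A_23_P111000, bases 1 to 60: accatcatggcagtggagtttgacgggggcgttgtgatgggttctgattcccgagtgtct

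The inducible subunits can also be set against the constitutive subunits whose place they take, since a difference between 2 genes on the same pair of arrays does not depend on the scaling factor. These pairs were chosen after values were seen. In HN4, the log2 difference of PSMB9 minus that of PSMB6 was -0.87, that of PSMB8 minus PSMB5 was -0.21, and that of PSMB10, the third inducible subunit, minus PSMB7 was -0.77. In HN30 the same 3 values were 1.30, 0.73 and 0.63. All 3 pairs were below 0 in HN4 and above 0 in HN30. Each kept its sign over 10 ways of processing, but a change of scaling factor cannot alter such a difference. Part of these ways therefore could not have turned a sign. For PSMB8 minus PSMB5 in HN4 the value lay within the scanner error of such a difference, 0.29. In HN30 the constitutive subunits were further below 0 than the inducible ones, with -1.13 for PSMB6, -1.11 for PSMB5 and -1.30 for PSMB7, against -0.09, -0.11 and 0.11 in HN4. The 4 heavy chains were set against B2M in the same way. The log2 difference minus that of B2M was 0.48 in HN4 and 0.46 in HN30 for HLA-B, and 0.84 and 0.82 for HLA-F. It was 0.52 and 0.14 for HLA-C. For HLA-E it was 0.26 and -0.23 by A_33_P7431456 and 0.50 and 0.15 by A_32_P460973, so its sign in HN30 depended on the probe.

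**Figure D2:**
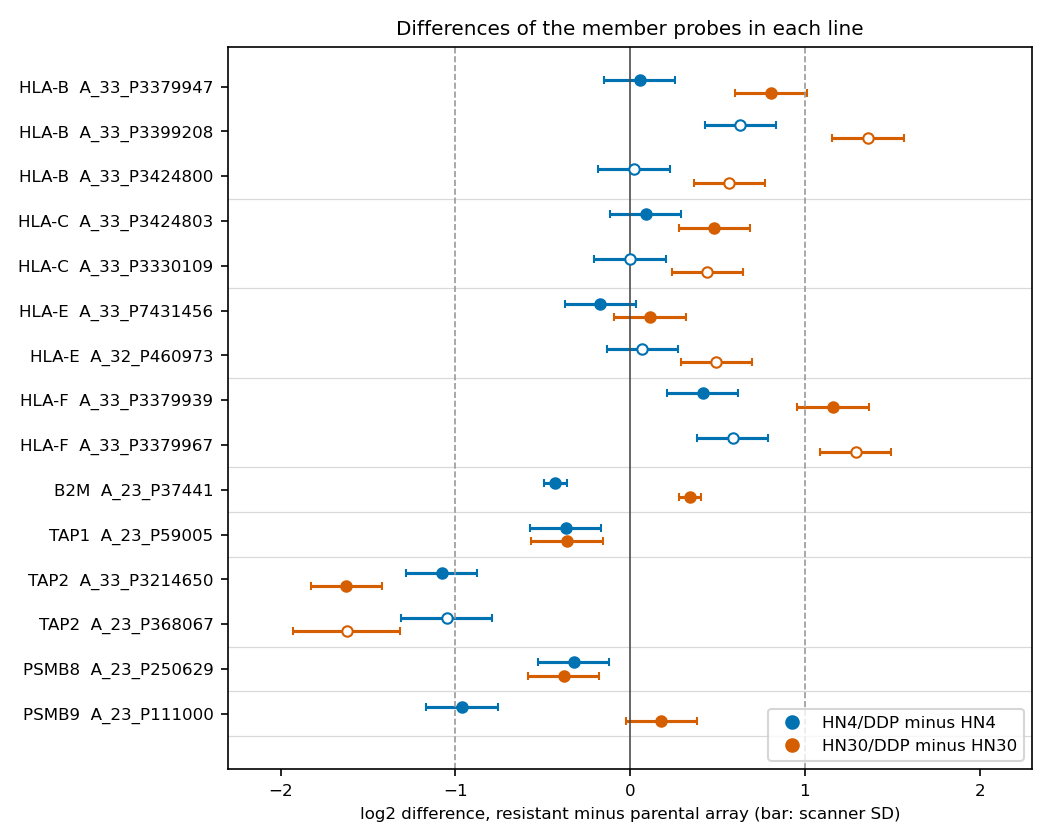
Log2 difference of each member probe, resistant minus parental array (x axis), for HN4 in blue and HN30 in orange, with bars for the scanner error (SD) and dashed lines at -1 and 1. The probe that represents a gene is filled; the TAP2 probes sit at -1.08 and -1.05 in HN4 and both at -1.62 in HN30, and the HLA-F probes lie to the right of 1 in HN30 only.

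Over the whole array, 3.61% of 26853 genes were higher and 2.2% were lower in HN4/DDP than in HN4 by a log2 difference past 2, the fold the study used. In HN30/DDP 8.37% of 28330 genes were higher and 2.75% lower. Of the 9 members, 0 passed that fold in either direction in either line. Past a log2 difference of 1, 9.31% of all genes were higher and 8.65% lower in HN4/DDP, against 0 members higher and 1 lower (TAP2). In HN30/DDP 19.8% of all genes were higher and 13.3% lower past 1, against 1 member higher (HLA-F) and 1 lower (TAP2). HLA-F was at 0.74 with scaling to the array median, and HLA-B passed 1 in 3 of 10 ways of processing, at up to 1.20. With 9 genes, 1 member is a share close to these backgrounds, so the counts do not set the members apart. By rank among all genes, TAP2 lay at percentile 7.66 in HN4 and 5.06 in HN30, PSMB9 at 9.24 and 55.7, and HLA-F at 78.4 and 82.9.

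The median difference of the 9 members was -0.32 in HN4 and 0.18 in HN30, against -0.08 and 0.06 over all genes. The 4 heavy chains had medians of 0.07 and 0.64, and the 5 other members -0.43 and -0.36. The HN30 median of the 9 was -0.24 with scaling to the array median and 0.68 with quantile normalization, so its sign rested on the processing. The same held for the 5 members without a heavy chain, whose HN30 median was 0.19 with quantile normalization, 0.19 in the deposited table and 0.14 with the brightness trend taken off. In HN4 their median was below 0 in all 10 ways of processing.

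**Figure D3:**
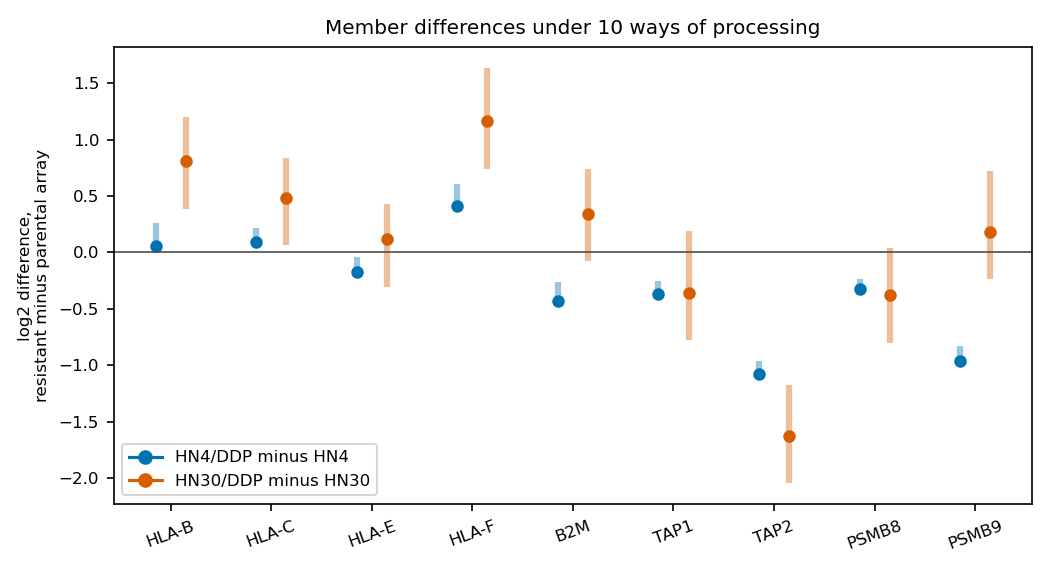
Log2 difference, resistant minus parental array (y axis), of each member in HN4 (blue) and HN30 (orange), with a point for the main setting and a bar from the lowest to the highest of 10 ways of processing. The HN4 bars are short and none crosses 0, whereas in HN30 those of HLA-E, B2M, TAP1, PSMB8 and PSMB9 cross 0, and TAP2 stays below -1 in HN30.

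Resistant against parental arrays is the single contrast with replicates, using the lines as replicates with the line as a block. In limma's moderated test over 29521 genes, TAP2 had a difference of -1.35 ± 0.39 (SE, 2 lines) and an adjusted p of 0.51, and was the single member with an unadjusted p under 0.05. HLA-F had 0.79 ± 0.31 and an adjusted p of 0.59. The adjusted p of the other 7 members was 0.74 to 0.98. Across all genes limma called 0 after Benjamini-Hochberg adjustment, with 2537 at an unadjusted p under 0.05, on 1 residual degree of freedom per gene.

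Regulation of this set is often described through shared promoter elements. The interferon-stimulated response element binds interferon regulatory factors, and the SXY module (a CRE-like X2 box and a CCAAT-type Y box) recruits NLRC5, the class I transactivator. RefSeq promoter windows (GRCh38.p14, 250 bases before to 50 after the start) were at hand for 8 of the 9 members, HLA-E being the one without. The letters searched on both strands were GAAANNGAA and its mirrored form GAANNGAAA (core of the interferon element, the latter added after the windows were seen), TTCNNNGAA (gamma-activated site), GGGNNTTCC (NF-kappa B), TGACG (CRE core) and CCAAT (Y box). Windows of the heavy chains, B2M and TAP2 are printed because these members differed in direction. Each runs from position -200 to -41, counted with 0 as the start, 5′ to 3′ on the gene's strand, with matches on either strand in capitals.

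HLA-B, chr6:31357220-31357379, minus strand: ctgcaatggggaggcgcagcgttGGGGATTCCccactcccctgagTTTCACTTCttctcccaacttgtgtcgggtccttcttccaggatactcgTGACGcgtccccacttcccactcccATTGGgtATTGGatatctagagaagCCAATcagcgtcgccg
HLA-C, chr6:31272133-31272292, minus strand: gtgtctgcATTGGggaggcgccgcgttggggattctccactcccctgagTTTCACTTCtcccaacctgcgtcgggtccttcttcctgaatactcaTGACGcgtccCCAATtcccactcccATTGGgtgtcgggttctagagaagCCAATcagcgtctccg
HLA-F, chr6:29723234-29723393, plus strand: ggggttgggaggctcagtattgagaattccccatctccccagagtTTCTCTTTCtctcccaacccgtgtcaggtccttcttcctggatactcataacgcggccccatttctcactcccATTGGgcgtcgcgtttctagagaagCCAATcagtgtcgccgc
B2M, chr15:44711317-44711476, plus strand: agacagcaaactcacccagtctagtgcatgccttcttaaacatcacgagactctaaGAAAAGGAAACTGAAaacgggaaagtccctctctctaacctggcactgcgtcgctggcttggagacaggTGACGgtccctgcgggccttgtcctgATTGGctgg
TAP2, chr6:32838780-32838939, minus strand: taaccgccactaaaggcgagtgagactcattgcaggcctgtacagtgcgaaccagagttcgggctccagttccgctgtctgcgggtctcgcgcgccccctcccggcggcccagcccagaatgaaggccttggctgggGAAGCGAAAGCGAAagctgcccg

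Either form of the interferon core was present in 7 of 8 members, against 14.5% of all 35116 promoter windows. For every motif a member with 2 windows counted if either matched, whereas the background is a share of single windows. The form GAAANNGAA was in 5 of 8 members and 8.11% of all windows, and GAANNGAAA in 4 of 8 and 7.66%, and matches overlap each other in B2M, in TAP2 and at 1 start each of TAP1 and PSMB8. PSMB9 was the member without it in its own window, and TAP1 and PSMB8, with 2 windows each, had it in 1 of them. TGACG was present in 6 of 8 members and 24.6% of all windows, and CCAAT in 6 of 8 and 34.6%. NF-kappa B letters were found in 3 of 8 and 6.58%, and gamma-activated site letters in 2 of 8 and 7.66%. In the heavy chain windows the interferon core began at position -155 for HLA-B, -151 for HLA-C and -155 for HLA-F, with a CCAAT near -56 in each. HLA-F and TAP1 had no TGACG in their windows, whereas HLA-B and HLA-C had it at -106 and -105. TAP2 had the interferon core at -63 and -58, nearer to the start, and no CCAAT. The windows of TAP1 and PSMB9 lie head to head and overlap by 13 bases, and the differences of these neighbours were -0.37 and -0.96 in HN4 and -0.36 and 0.18 in HN30. A match gives the letters only and says nothing of binding in these cells.

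**Figure D4:**
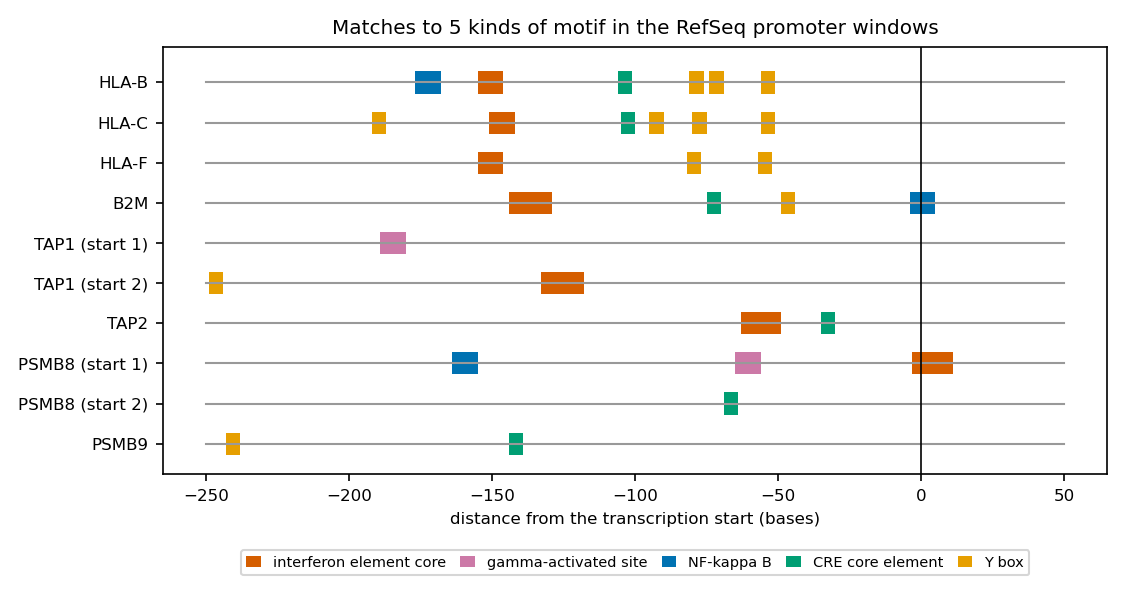
Position of motif matches (coloured blocks) along each member's promoter window, by distance in bases from the transcription start at 0; TAP1 and PSMB8 have 2 starts each, and HLA-E is not in the table. The interferon core begins between -155 and -127 in HLA-B, HLA-C, HLA-F, B2M and 1 start of TAP1, and nearer to 0 in TAP2 and PSMB8.

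Other genes of the route were read from lists of 49 genes, of which 48 were on the array. Of these, 42 were well above background on an HN4 or HN4/DDP array and 43 on an HN30 or HN30/DDP array. Past a log2 difference of 1, 4 of 42 were higher and 2 lower in HN4/DDP, against 9.31% and 8.65% of all genes. In HN30/DDP 3 of 43 were higher and 8 lower, against 19.8% and 13.3% of all genes. The HN30 counts depended on the processing, with 2 to 7 higher and 4 to 13 lower. Among the regulators, NLRC5 read -1.60 in HN4 and -1.48 in HN4/DDP, against -1.88 in HN30 and -2.04 in HN30/DDP, differences of 0.12 and -0.15, and its probes disagreed (-0.50 to 0.12 in HN4 and -0.15 to 0.99 in HN30). Its sign turned with the processing in both lines, from -0.19 to 0.17 in HN4 and from -0.57 to 0.42 in HN30. IRF1, an interferon regulatory factor that acts on class I promoters, was -0.91 in HN4 and 0.49 in HN30. IRF9, part of the type I interferon response complex, read 1.60 and 0.93 by its representative probe and 0.21 and 1.55 by the other. NFKB1, the p50 precursor, was -0.81 in HN4 and -2.71 in HN30. Over the 10 ways of processing, the IRF1, IRF9 and NFKB1 differences kept their sign in both lines.

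Loading and trimming genes had a median difference of -0.43 in HN4 and -0.46 in HN30, and over the 10 ways of processing this median ran from -0.55 to -0.33 in HN4 and from -0.88 to -0.06 in HN30. TAPBP (tapasin), which holds the heavy chain at the transporter, was -0.94 in HN4 and 0.29 in HN30, the same pair of signs as PSMB9 and B2M, although at array-median scaling the HN30 value was -0.13. TAPBPL, a tapasin relative, was -1.04 and -0.94. ERAP1, which trims peptides, was -1.47 in HN4 and -0.40 in HN30, where its 2 probes differed in sign. CANX, a chaperone of the free heavy chain, and TPP2, a cytosolic peptidase, were past -1 in HN30 only, at -1.11 and -1.22.

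Proteasome genes had a median of -0.28 in HN4 and -1.12 in HN30, which over the 10 ways of processing ran from -0.28 to -0.18 and from -1.54 to -0.55. PSMB10 was -0.66 and -0.67. PSME3, the nuclear proteasome activator, was 0.05 in HN4 and -2.07 in HN30, and POMP, which assembles the proteasome, was -0.93 and -1.40. MR1, a class I-like molecule that shows vitamin metabolites, was higher by 1.21 in HN4 and 0.56 in HN30. Of the class II genes, HLA-DRA and CD74 were not well above background on any array, while HLA-DMA, a class II peptide exchange factor, was higher by 2.31 and 2.12 and its partner HLA-DMB by 0.22 and 3.64. Over the 10 ways of processing the HN30 value of HLA-DMB ran from 1.99 to 3.64. HLA-DPB1, by its probe with the highest mean of 5, was well above background on the HN30/DDP array alone, at least 1.96-fold higher than in HN30, but its 5 probes ran from -0.23 to 2.48 in HN30 and so disagreed in sign.

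**Figure D5:**
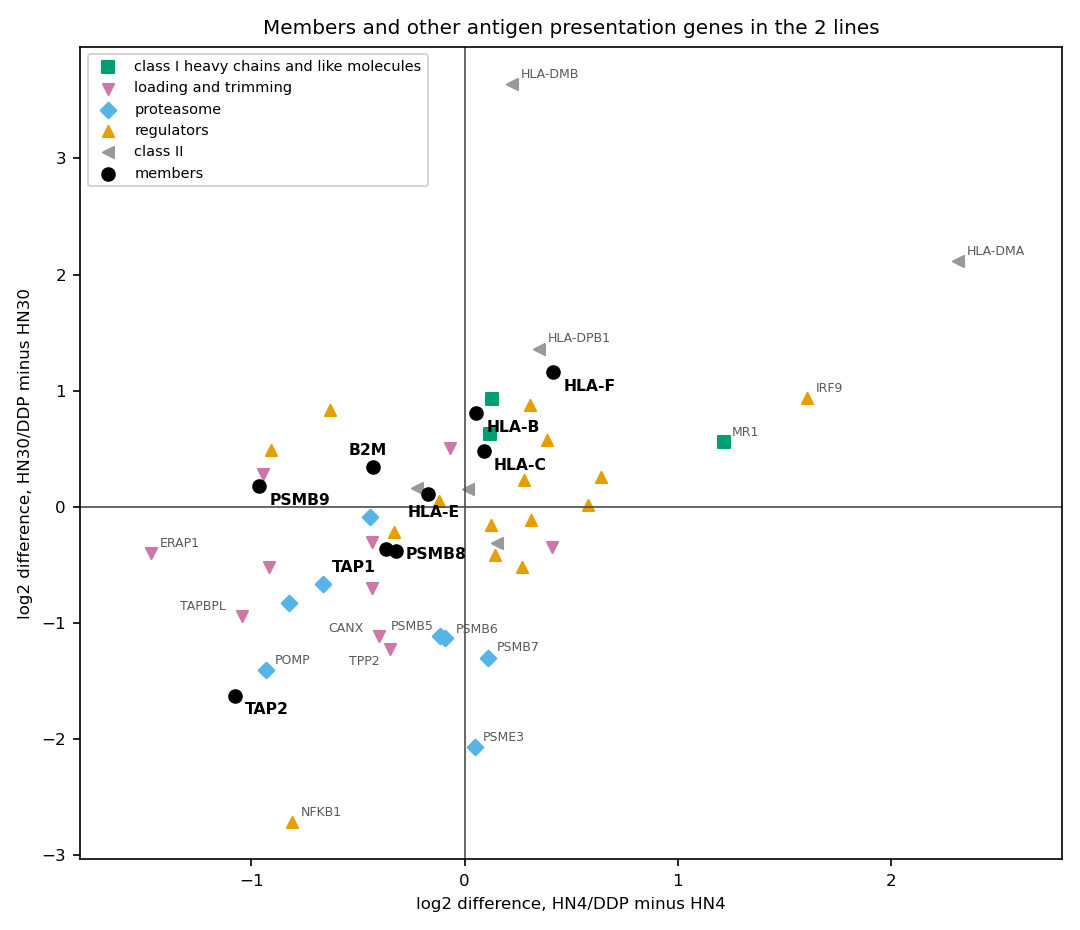
Log2 difference in HN4 (x axis) against that in HN30 (y axis) for the 9 members (black, named) and 42 of the other genes of the route that were well above background on at least 1 array (symbols by list, named where past 1 in either line). Members lie near the other heavy chains at the upper right of the origin (HLA-F, HLA-B, HLA-C) or to its left, and TAP2 lies at the lower left.

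The mean profile of the 9, each centred on its own mean, was 0.22 in HN4 and -0.09 in HN4/DDP, against -0.10 in HN30 and -0.02 in HN30/DDP. By root mean square distance over the 4 arrays, the nearest among 22140 genes were lnc-ACACA-1 (0.0064), ENST00000416563 (0.020), ENST00000414005 (0.021), MAP3K5 (0.025) and ANKRD53 (0.026), a nearness that picking the closest of so many genes brings by itself. Among the members, HLA-E was nearest to the mean (0.061) and TAP2 farthest (0.66).

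The arrays differed in depth of detection: 23950 to 27625 genes were well above background, with the most on HN30/DDP. Of the 6 squamous epithelial markers, all were well above background on 3 arrays, and all but KRT6A on HN30/DDP. The keratins differed widely within the lines: KRT5 by -4.05 in HN4 and -1.93 in HN30, KRT14 by 2.33 and 0.22, and KRT6A by 3.32 in HN4, while in HN30/DDP it was at least 183-fold lower. The other KRT14 probe differed by 3.95 in HN4 and 3.38 in HN30. Leukocyte markers were well above background for 2 of 4 genes, and for 3 of 4 on HN30/DDP, where CD3E was added. Fibroblast markers stood at 2 of 3 on every array and endothelial markers at 2 of 3, or 3 of 3 on HN30/DDP. The endothelial markers counted were CDH5 with PECAM1 in HN4, and CDH5 with VWF in HN4/DDP and HN30. CD14, a monocyte marker, differed by 0.56 in HN4 and 3.49 in HN30, whereas PTPRC, the general leukocyte marker, differed by -0.10 and 0.16. COL1A1, a collagen of fibroblasts, differed by 1.73 and 2.43, while COL3A1 was not well above background on any array. In HN4 and HN30 the endothelial marker CDH5 differed by -0.62 and -0.59, VWF by 2.43 and 1.49 and PECAM1 by -2.88 and 1.10. VWF in both lines and PECAM1 in HN30 had probes of both signs. Markers of the same cell type thus differed among themselves, and the part of other cells in those values was not tested. A whole culture on an array cannot separate fewer expressing cells from less RNA per cell.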

How the data were processed

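Each of the 4 cultures (HN4, HN4/DDP, HN30 and HN30/DDP) was measured on 1 Agilent one-colour array. Per the file headers, the authors read the arrays with Agilent Feature Extraction 10.7.1.1, which gave each spot a background-subtracted processed signal as a linear intensity, not scaled between arrays, with probe positions on hg19. Their deposited log2 table, in which the arrays share 1 set of quantiles, served as an alternative. Over 58183 probes its differences had r = 0.996 (HN4) and 0.958 (HN30) with those computed here.

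For this report, log2 of the processed signal minus the array's 75th percentile was taken over non-control spots. Outlier spots were left out (2 of 96 member spots over the arrays), spots of a probe were averaged, and a gene took its probe with the highest mean. Genes past the fold were counted where the brighter array of the pair was well above background. Genes named in the text are the 9 members, a few fixed pathway genes, those of the pathway lists with a difference past 1 and the nearest profiles; some of the genes so chosen and 1 probe sequence are not reported here. Of the 9 representative probes, 8 matched RefSeq by accession, and HLA-C kept the name of the array. The members and lists were chosen with earlier results of these data known. Normalization alternatives included normexp with an offset of 50, median and quantile scaling and a pseudocount of 16. The limma fit (limma 3.58.1, R 4.3.3) was tested on simulated data. Other steps used Python 3.11.15, numpy 2.4.6, pandas 2.3.3 and statsmodels 0.14.6. The number of arrays limits the precision. All 4 arrays lie on 1 slide and 1 scan.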

Additional observations from a re-analysis of the deposited data

Results flagged for a closer look

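The members HLA-E, B2M and PSMB9 had differences of opposite sign in the 2 lines, on 1 array per condition. The HN30 difference minus the HN4 difference was 0.28 for HLA-E, 0.77 for B2M and 1.14 for PSMB9, and this difference between the lines was not tested. For HLA-E each value lay within the scanner error, and its other probe, A_32_P460973, was above 0 in both lines (0.07 and 0.49), so the opposite signs hold for 1 of its probes only. For HLA-E, B2M and PSMB9 the sign in HN30 turned under scaling to the array median (-0.30, -0.08 and -0.24).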

How the results depend on the processing

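Of 162 member values under 9 other ways of processing, 125 moved by no more than the scanner error and 37 by more, the latter with median scaling, quantile normalization, the deposited table or the brightness trend taken off. In HN4 all 9 members kept their sign in all of these, and in HN30 4 of 9 did (HLA-B, HLA-C, HLA-F and TAP2). The median of all HN30 genes was 0.06, and -0.36 with median scaling. The median member difference in HN30, 0.18, was -0.24 with median scaling, 0.68 with quantile normalization, 0.70 in the deposited table, 0.69 with the brightness trend taken off and -0.36 without the heavy chains. The number of members past the fold was 1 in HN4 and 2 in HN30 at a log2 difference of 1, and 1 in HN30 with median scaling (TAP2, -2.04), against 0. The cause was not tested. HLA-E by its other probe, chosen after seeing the data, left the HN4 median at -0.32 and gave 0.34 in HN30. The count of genes called by limma was 0 in all 6 fits. That fit has the line as a block, and no replicate could be left out of a group, since each has 1 array.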
